A study of Glycine max with 9 samples.

Results

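The 149 genes described here were those of soybean (Glycine max) libraries labelled as root hair cells whose transcript levels were highest in the libraries titled 24h. They were chosen from the measured values in the deposited table of 56044 gene IDs. FPKM (fragments per length of transcript and per mapped fragments) were divided by a factor per library (the median of its ratios to the geometric mean over all libraries), and the results are called scaled FPKM below. Among the 17155 genes with a mean of 5 to 1000 FPKM, 505 (2.94%) had all 3 of their 24h libraries above all 12h and 48h libraries. The 150 with the largest 24h difference were taken, and 1 of them, Glyma.20G141600, was dropped as the rule prescribes. The 24h difference is the mean of log2(scaled FPKM + 1) at 24h minus the higher of the means at 12h and 48h. Since the 24h values chose the genes, their levels at 24h against the other groups are a description, with no test.

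Root hairs are tubular outgrowths of single root epidermal cells. They extend by growth at the tip, take up water and mineral nutrients, and in legumes are the cells through which rhizobia usually enter the root. As background, a root hair passes from initiation through rapid elongation to maturity, and the transcripts it needs differ between these stages.

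The 9 libraries were made from root hair cells of the genotype spelled willam 82 in the labels, grown in an ultrasound aeroponic system. The 3 groups of 3 libraries are titled 12h, 24h and 48h and are aged 276, 288 and 312 hours after sowing. No treatment that differs between the groups is named, all share 1 genotype, and no untreated control group is part of the series. The labels do not say whether replicate libraries are of separate plants, so any p-value reflects only how far these libraries spread, which can be technical. The deposited file does not pair its IDs with gene names, and 0 of the 56044 IDs matched the RefSeq table of assembly Glycine_max_v4.0, so genes are given by ID with no name, role, sequence or position beyond the chromosome in the ID, and root hair markers were not checked. The sources differ on the tissue: "tissue culture" stands in what the file is called and root hair cells in the sample labels. The labels were followed, and the tissue could not be checked against markers. In bulk samples, fewer cells of a type and less RNA per cell cannot be told apart.

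One library stood furthest apart before any gene was chosen. In 12h replicate 2 the 100 highest genes made up 53.6% of the FPKM sum. This share was 33.1%, 38.5% and 38.0% in 24h replicates 1, 2 and 3, and 22.5% to 28.1% in the remaining libraries. The scaling factor of 12h replicate 2 was 0.599. That of 24h replicate 3 was the next lowest, 0.798, and the others reached up to 1.24. The IDs above 0 in a library numbered 37256 in 24h replicate 3, 37881 in 12h replicate 2 and up to 42430 in the others. Read totals are not part of the table, so the depth behind each value is unknown and no counting interval is given. The membership of the 149 genes rested on 12h replicate 2. When 12h replicate 2 was left out, 3414 genes had their 24h libraries on top, and 7 of the 149 were among the 150 genes then chosen. All 149 still had their 24h libraries on top. Leaving a library out loosens that condition and can undo it only through the new scaling or the filter on the mean. Other genes with larger 24h differences took the places of most.

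The 24h difference of most of the 149 genes was modest. Their median 24h difference was 0.67 on the log2 scale, with a range of 0.58 to 3.04. Expressed in scaled FPKM, the 24h mean was 1.66 times the higher of the other 2 group means at the median, from 1.46 to 4.65 times. Only 19 of the 149 had a 24h difference of at least 1, and 104 lay below 0.75. The median scaled FPKM of the genes was 10.05, 13.6 and 10.3 in 12h replicates 1 to 3, 22.3, 23.8 and 28.1 in the 24h replicates and 11.9, 13.7 and 14.3 in the 48h replicates. The 3 libraries at 24h thus lay above the other 6, while the median of all 17155 genes stayed between 11.98 and 14.95 scaled FPKM in the 9 libraries.

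**Figure D1:**
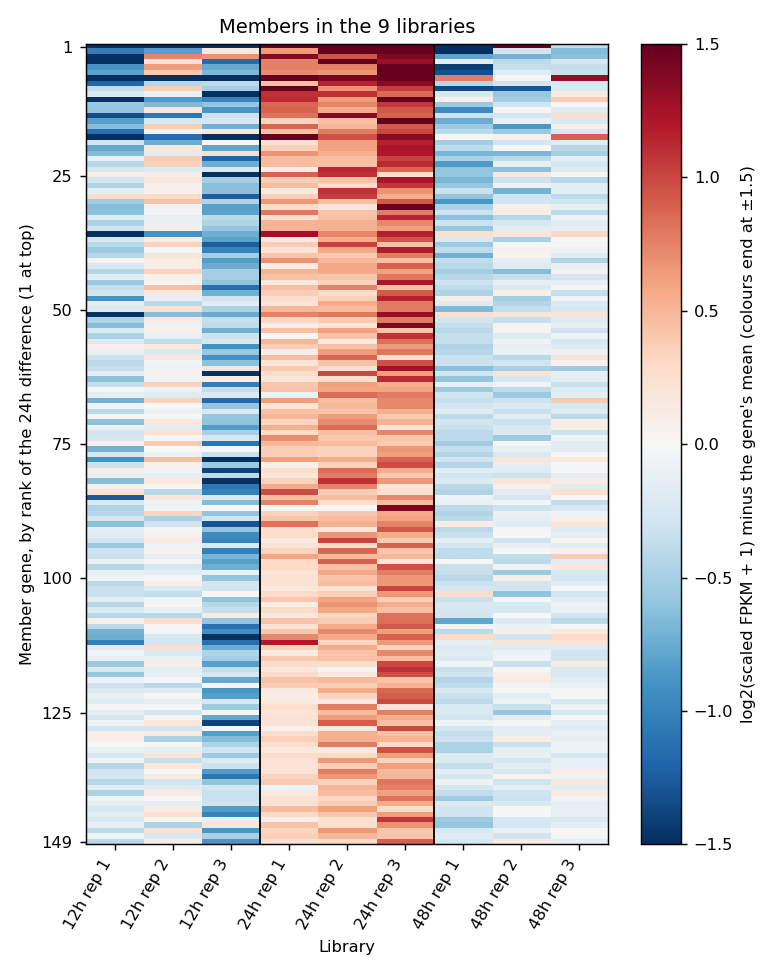
Each row is 1 of the 149 genes, ordered by its 24h difference, and each column 1 of the 9 libraries. Colour gives log2(scaled FPKM + 1) minus the mean of that gene over the 9 libraries, and colours end at ±1.5. The 24h columns are the highest in every row because the genes were chosen so, 24h replicate 3 is the highest of them in 92 rows, and 12h replicate 2 is the highest 12h library in 109.

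Glyma.16G039000 had the largest 24h difference, 3.04. Its values were 34.1, 28.1 and 51.1 scaled FPKM in the 24h libraries. In the 3 libraries of 12h and in 48h replicate 1 it was listed at 0 or under 1e-06 FPKM, and in 48h replicates 2 and 3 it had 21.05 and 3.31 scaled FPKM. The 48h libraries were therefore far apart, and 48h replicate 2 lay closer to the 24h libraries than to 48h replicate 1. It was the only one of the 149 with such a value, which in a table of estimates can be a failed estimate rather than an absent transcript.

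Glyma.11G133100 had 3.88, 4.62 and 10.2 scaled FPKM in the 12h libraries, 14.5, 35.5 and 33.00 in the 24h libraries and 2.19, 7.18 and 5.34 in the 48h libraries. The means were 6.24 ± 3.47, 27.7 ± 11.5 and 4.91 ± 2.52 scaled FPKM (SD, n = 3 each), a 24h difference of 1.99, and 24h replicate 1 was the lowest of its group. Glyma.18G213300 had 5.69, 26.5 and 9.61 scaled FPKM in the 12h libraries, 39.04, 67.8 and 57.2 in the 24h libraries and 20.3, 17.04 and 18.9 in the 48h libraries. Its 12h libraries were uneven, with replicate 2 the highest, whereas its 48h libraries were close together at 18.7 ± 1.62 scaled FPKM (SD, n = 3). Glyma.13G333100 had 0.914, 24.5 and 23.6 scaled FPKM in the 12h libraries, 38.8, 28.6 and 39.3 in the 24h libraries and 7.87, 8.36 and 9.02 in the 48h libraries. Here 12h replicate 1 alone was low, and 12h replicates 2 and 3 were closer to the 24h libraries than to it.

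Glyma.13G186100 and Glyma.15G223800 moved in parallel. The first had 15.2, 45.01 and 16.8 scaled FPKM in the 12h libraries, 49.7, 49.5 and 89.6 in the 24h libraries and 10.2, 22.6 and 22.5 in the 48h libraries. The second had 25.6, 59.9 and 27.9 scaled FPKM in the 12h libraries, 74.7, 72.4 and 132 in the 24h libraries and 17.6, 39.8 and 36.00 in the 48h libraries. Both were highest in 24h replicate 3, and in both 12h replicate 2 came closest to the 24h libraries. The second gene stood at 1.33 to 1.76 times the level of the first over the 9 libraries. The SD of that log2 ratio was 0.133, against a median of 0.427 over the 10878 pairs of the genes above 0 in all libraries, and it ranked 52 among them. The steadiest pair was Glyma.19G170100 and Glyma.16G018300, the second at 0.484 to 0.552 times the level of the first. These pairs were looked up after their values were seen. Duplicated copies are frequent in the soybean genome and can share reads, so separate values of copies are uncertain, and whether these pairs are copies was not tested.

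**Figure D2:**
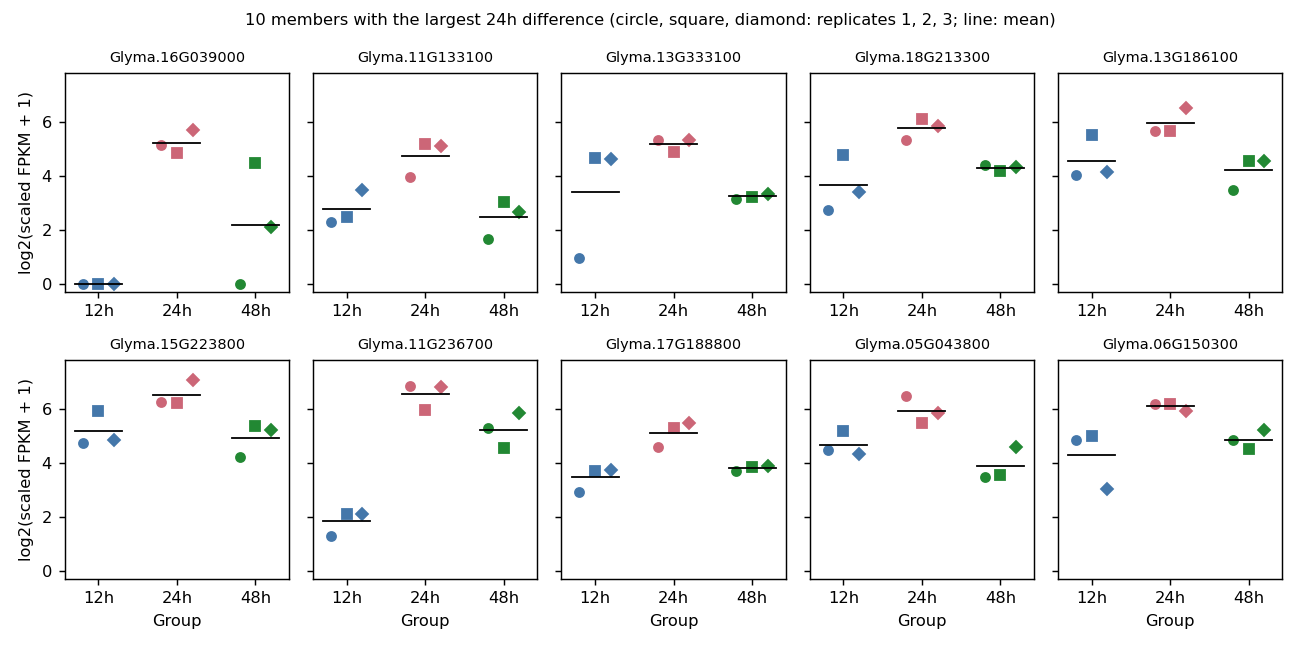
The 10 genes with the largest 24h difference, 1 panel each. The vertical axis is log2(scaled FPKM + 1), the points are the libraries of each group (circle, square and diamond for replicates 1, 2 and 3) and the line is the group mean. The 24h points lie on top by choice, and the distance to the nearest 12h or 48h point varies, from 0.11 for Glyma.11G236700 to 0.71 for Glyma.06G150300 on that scale.

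Glyma.17G188800 and Glyma.06G150300 were separated more clearly from the other groups than the genes ranked above them. The first had 6.64, 12.02 and 12.3 scaled FPKM in the 12h libraries, 22.8, 37.8 and 43.7 in the 24h libraries and 11.9, 13.4 and 13.9 in the 48h libraries. Its lowest 24h library was 0.68 above its highest other library on the log2 scale. The second had 27.9, 30.6 and 7.15 scaled FPKM in the 12h libraries, 71.3, 70.99 and 59.5 in the 24h libraries and 27.7, 21.7 and 35.9 in the 48h libraries, with a gap of 0.71. The widest gap of all, 0.72, belonged to Glyma.20G223200, named for that gap after its values were seen, with 6.93, 6.37 and 6.91 scaled FPKM in the 12h libraries, 20.5, 18.6 and 23.6 in the 24h libraries and 7.10, 8.61 and 10.9 in the 48h libraries. Its 12h libraries were nearly equal and lay just below its 48h libraries, and the 24h libraries alone stood apart. For the 149 genes the median gap was 0.18, 7 had a gap of at least 0.5, and 44 had one below 0.1. Glyma.09G005400 had the smallest, with 10.9 scaled FPKM both in its lowest 24h library and in its highest other library. In 68 of the 149 genes the library nearest below the 24h group was 12h replicate 2, in 34 it was 48h replicate 3 and in 21 it was 48h replicate 2.

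At the limit of the rule, the last 3 genes inside were Glyma.08G050100, Glyma.08G185500 and Glyma.07G046500, with 24h differences of 0.5761, 0.5756 and 0.5752. The first 3 outside were Glyma.16G051800, Glyma.17G238600 and Glyma.05G157000, with 0.5749, 0.5715 and 0.5702. Glyma.08G185500 had 6.07, 5.25 and 4.28 scaled FPKM in the 12h libraries, 8.42, 9.34 and 8.83 in the 24h libraries and 5.49, 4.98 and 6.45 in the 48h libraries. Glyma.16G051800, outside, had 48.3, 45.8 and 32.03 scaled FPKM in the 12h libraries, 55.1, 54.96 and 79.3 in the 24h libraries and 34.5, 34.5 and 34.6 in the 48h libraries. Genes on both sides of the limit thus showed differences of the same size.

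The genes spanned the range of levels that the rule admits. By mean FPKM, 46 had 5 to 10, 65 had 10 to 50, 18 had 50 to 100 and 20 had 100 or more. These are 30.9%, 43.6%, 12.1% and 13.4% of the 149, beside 35.7%, 49.01%, 7.96% and 7.32% of the 17155 genes. The median 24h difference was nearly the same at each level, 0.67 in the lowest class and 0.67 in the highest, and the 10 genes with the largest differences had means of 10 to 100 FPKM.

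Glyma.05G114900 had the highest mean, 442 FPKM. It had 355, 491 and 299 scaled FPKM in the 12h libraries, 591, 576 and 711 in the 24h libraries and 263, 327 and 354 in the 48h libraries, and its group means were 382 ± 98.7, 626 ± 74.01 and 315 ± 46.9 scaled FPKM (SD, n = 3 each). Glyma.19G052400 had 229, 299 and 188 scaled FPKM in the 12h libraries, 401, 405 and 436 in the 24h libraries and 187, 249.9 and 255 in the 48h libraries, with 24h libraries that differed little and a 24h difference of 0.82. Glyma.10G223400 had 164, 235 and 119.8 scaled FPKM in the 12h libraries, 278, 357 and 551 in the 24h libraries and 185, 253 and 229 in the 48h libraries. Its 24h libraries were the most uneven of the 5 genes with the highest means, with replicate 3 at 1.98 times replicate 1. Glyma.07G044300 and Glyma.17G156900 had narrow margins, with 330.02 and 294 scaled FPKM in their lowest 24h libraries against 316 and 291 in their highest other libraries.

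The 24h libraries did not contribute equally. In 92 of the 149 genes 24h replicate 3 was the highest 24h library (61.7%, beside 41.1% of the 17155 genes), in 43 it was replicate 2 and in 14 replicate 1. Replicate 1 was the lowest in 87. The highest 24h library was 1.52 times the lowest at the median, 1.04 to 2.82 times over all 149, and above 2 times in 14. Within groups, the log2 levels of the 149 had a median SD of 0.398 in the 12h, 0.297 in the 24h and 0.194 in the 48h libraries, beside 0.546, 0.346 and 0.162 for the 17155 genes. Among the 12h libraries, replicate 2 was the highest in 109 of the 149 (73.2%, beside 44.3% of the 17155 genes). The cause of these orders was not tested.

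When a library was left out of the choice, its own values had no part in choosing the genes. The rule was applied to 8 libraries at a time, and the left-out library was read for the genes so chosen. A left-out 24h library was read as above all 12h and 48h libraries, and a left-out 12h or 48h library as below all 24h libraries, beside the share of all genes with a mean of 5 to 1000 FPKM over the 8 libraries. These genes overlap with the 149 only in part. The libraries that the left-out one was compared with did choose the genes. That can by itself set the share meeting the condition above that of all genes, so the shares are a description, with no test.

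Left-out 24h replicate 1 met the condition in 45 of 149 genes (30.2%), against 8.84% of all genes. For 24h replicate 2 it was 91 of 149 genes (61.1%), against 15.9%, and for 24h replicate 3 70 of 149 genes (46.98%), against 17.2%. Each 24h library was thus on top more often for genes chosen without it than for all genes, and for replicate 2 alone in most of them. Left-out 48h replicates 1, 2 and 3 were below all 24h libraries in 145 of 149 genes (97.3%), against 43.1%, in 144 of 149 genes (96.6%), against 45.1%, and in 119 of 149 genes (79.9%), against 39.2%. Left-out 12h replicate 1 was below in 129 of 149 genes (86.6%), against 39.2%, and 12h replicate 3 in 109 of 149 genes (73.2%), against 43.6%. For these 5 libraries the median distance below the 24h mean was 0.609 to 0.858 on the log2 scale, against 0.122 to 0.215 over all genes. The 24h mean in that distance was used to choose the genes, which can by itself widen it for them.

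The library 12h replicate 2 went the other way. Of the 150 genes chosen without it, it was below all 24h libraries in 7 (4.67%), against 21.3% of all genes. The median level of these 150 genes was 289.6 scaled FPKM in 12h replicate 2, against 29.1 and 25.6 in 12h replicates 1 and 3. It was 72.4, 83.4 and 161 in the 24h libraries and 27.1, 34.2 and 34.4 in the 48h libraries. The genes most raised at 24h against the other 5 libraries thus had a still higher median level in 12h replicate 2. Of the 3414 genes with the 24h libraries on top without it, 519 (15.2%) had 12h replicate 2 below the 24h libraries too. The cause was not tested.

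**Figure D3:**
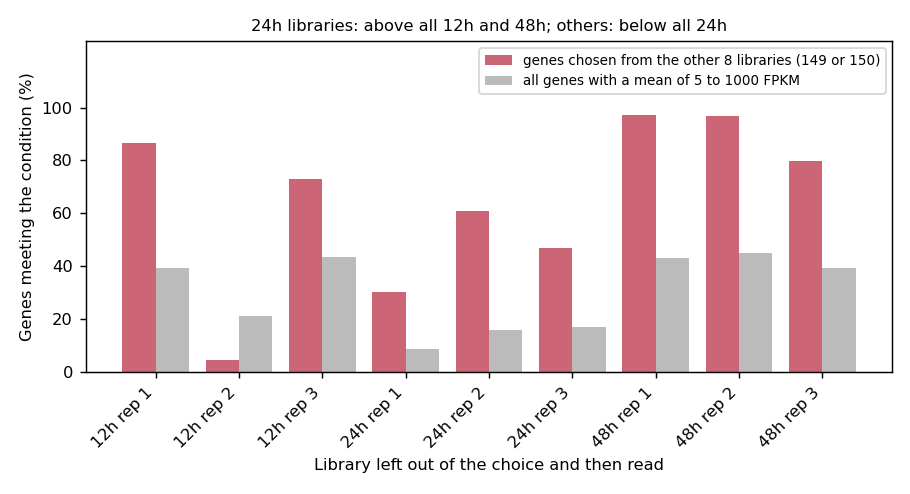
Percent of genes meeting the condition in each library after it was left out of the choice (red), beside all genes with a mean of 5 to 1000 FPKM (grey). The condition is being above all 12h and 48h libraries for a 24h library and below all 24h libraries for the others. The red bar exceeds the grey in 8 libraries, and in 12h replicate 2 it is lower, at 4.67% against 21.3%. The libraries compared with chose the genes, which can by itself raise the red bars.

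**Figure D4:**
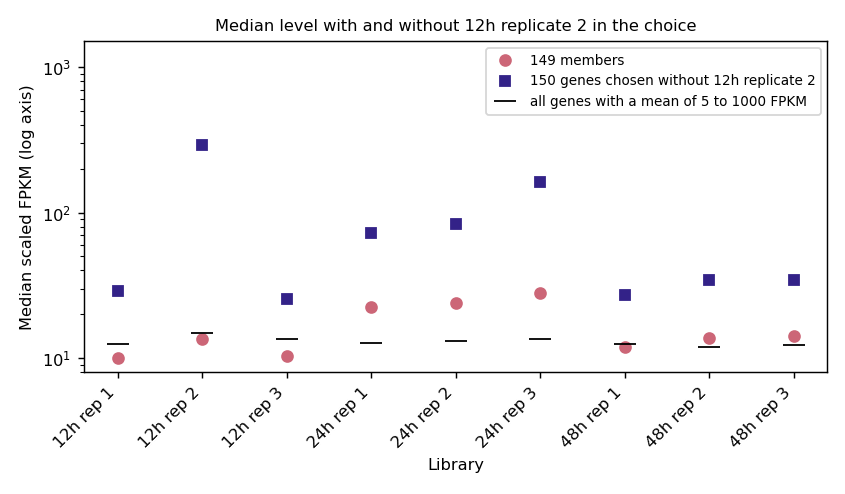
Median scaled FPKM (log axis) per library of the 149 genes (circles), of the 150 genes chosen without 12h replicate 2 (squares) and of all 17155 genes (dashes). The squares reach 289.6 in 12h replicate 2, above every 24h library, whereas the circles stay at 13.6 there. The rule required the 149 genes to be below the 24h libraries in 12h replicate 2, and the choice of the 150 did not use it.

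The 7 genes that were chosen with and without 12h replicate 2 were Glyma.16G039000, Glyma.11G133100, Glyma.13G333100, Glyma.18G213300, Glyma.13G186100, Glyma.15G223800 and Glyma.05G043800. All but Glyma.13G333100 were chosen in each of the 9 leave-outs, and all 7 kept their 24h libraries on top in the deposited FPKM and after quantile normalization. Glyma.05G043800, not yet given, had 20.97, 35.01 and 18.8 scaled FPKM in the 12h libraries, 86.7, 43.7 and 56.9 in the 24h libraries and 10.02, 10.7 and 22.98 in the 48h libraries. It was lowest at 48h, where replicates 1 and 2 stood at less than any 12h library. At the other end, 75 of the 149 genes were chosen in 5 or fewer of the 9 leave-outs.

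The scale of the values also mattered. In the FPKM as deposited, 84 of the 149 had their 24h libraries on top, after quantile normalization 100, and on all 3 scales 68. Glyma.11G236700 was among those that lost the condition. On the rule's scale it had 1.43, 3.29 and 3.29 scaled FPKM in the 12h libraries, 113, 61.1 and 111 in the 24h libraries and 38.2, 22.3 and 56.5 in the 48h libraries.

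The 12h and 48h groups were also compared in the 149 genes, as a description. The rule used the levels of both groups, so nothing is read from the counts and p-values given for these genes here and below. All 149 passed the filter of 1 scaled FPKM in 3 libraries and were among the 31021 genes tested with limma. Of these, 0.00967% (3 genes) were called higher at 48h and 0% lower at an adjusted p under 0.05, and 0 of the 149 were called. At an unadjusted p under 0.05, 10 of the 149 (6.71%) differed, all with higher values at 48h, beside 3.28% of all genes higher and 4.42% lower. All 48h libraries were above all 12h libraries in 9 of the 149 (6.04%, beside 7.91%) and below in 2 (1.34%, beside 7.91%). Leaving out 12h replicate 2 gave 35 above (beside 15.1% of all genes tested), and leaving out 48h replicate 1 gave 17 (beside 10.4%). Leaving out 12h replicate 1, 2 or 3 gave 9, 5 or 21 below (beside 16.1%, 16% and 16.2%), and leaving out 48h replicate 3 gave 11 (beside 10.8%). In the FPKM as deposited the counts were 61 above (beside 19.8%) and 0 below (beside 2.23%), where the median over the tested genes was itself shifted by 0.34 on the log2 scale, against -0.03 in the scaled values.

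The median log2 difference of 48h minus 12h over the 149 was 0.06, with a range of -0.78 to 3.40. In 134 it was below 0.5 in size, in 14 it was 0.5 or more above 0, beside 7.19% of the 17155 genes, and in 1, Glyma.05G043800, it was as far below, beside 21.4%. In 6 genes the 48h mean was at least 1 higher, beside 1.59% of the 17155 genes, namely Glyma.16G039000, Glyma.11G236700, Glyma.17G138900, Glyma.05G128000, Glyma.09G274200 and Glyma.20G214200. By their group means, these were lowest at 12h, highest at 24h and between these levels at 48h. For Glyma.16G039000 this rests on 48h replicates 2 and 3. In 48h replicate 1 it was listed under 1e-06 FPKM, as in the 12h libraries, which can be a failed estimate.

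Glyma.11G236700, whose values are given above, stood lowest at 12h, with 2.67 ± 1.08 scaled FPKM there and 38.98 ± 17.1 at 48h (SD, n = 3 each). Its level at 48h was 3.40 above that at 12h on the log2 scale, with an SE of 0.405 and a limma adjusted p of 0.0706. It passed in 4 of 17 alternative fits, with adjusted p-values from 0.00755 to 0.366. Glyma.05G128000 had 0.191, 0.948 and 0.0419 scaled FPKM in the 12h libraries, 13.5, 7.34 and 9.96 in the 24h libraries and 3.35, 3.56 and 7.03 in the 48h libraries, and its 48h level was 2.01 above that at 12h on the log2 scale, with an SE of 0.346 and a limma adjusted p of 0.153 (0.0379 to 0.682 over 17 alternatives, 1 of which passed). Glyma.09G274200 had 3.01, 9.40 and 10.7 scaled FPKM in the 12h libraries, 45.8, 31.2 and 42.6 in the 24h libraries and 22.1, 21.1 and 23.1 in the 48h libraries. Its 48h libraries were nearly equal and lay between the other groups, with a log2 fold change of 1.55 (limma adjusted p = 0.347; 0.0655 to 0.9997 over 17 alternatives). Glyma.17G138900 had 0.611, 1.74 and 1.49 scaled FPKM in the 12h libraries, 9.67, 6.60 and 15.8 in the 24h libraries and 4.13, 2.45 and 5.40 in the 48h libraries. Glyma.20G214200 had 10.5, 30.3 and 27.9 scaled FPKM in the 12h libraries, 81.04, 83.3 and 120.2 in the 24h libraries and 57.00, 54.6 and 56.1 in the 48h libraries, and its 3 groups did not overlap.

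Among genes with lower values at 48h than at 12h, the smallest p-values belonged to Glyma.05G043800, Glyma.16G153400 and Glyma.11G243200, with log2 fold changes of -0.78, -0.48 and -0.44 and limma adjusted p-values of 0.686, 0.731 and 0.744. Glyma.11G243200 had 8.84, 12.8 and 17.5 scaled FPKM in the 12h libraries, 23.4, 21.6 and 34.5 in the 24h libraries and 8.56, 8.59 and 9.92 in the 48h libraries. Its 12h libraries overlapped the range of the 48h libraries in replicate 1. Glyma.16G153400 had 5.16, 6.43 and 7.87 scaled FPKM in the 12h libraries, 9.24, 8.17 and 17.7 in the 24h libraries and 4.05, 4.56 and 4.34 in the 48h libraries, with no overlap between 12h and 48h.

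**Figure D5:**
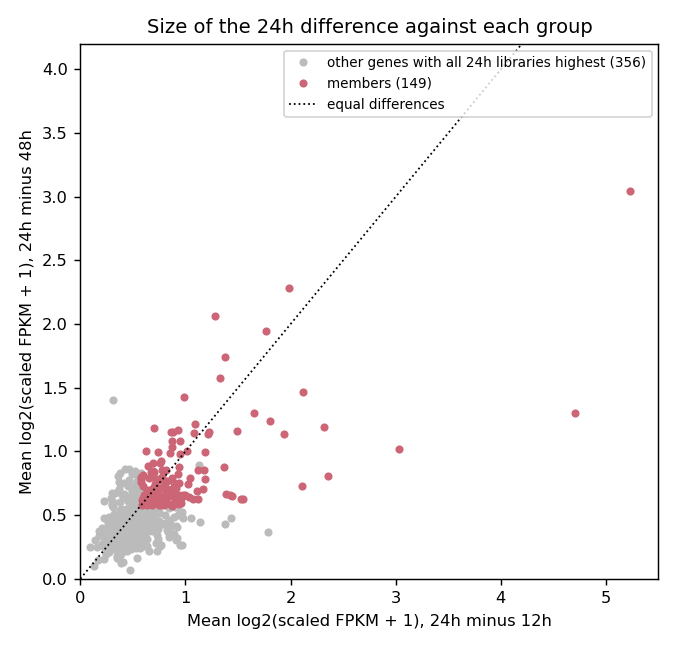
Mean log2(scaled FPKM + 1) at 24h minus that at 12h (horizontal) and minus that at 48h (vertical) for the 149 genes (red) and the other 356 genes with all 24h libraries on top (grey, 1 of them dropped by the rule). Most red points crowd between the limit of 0.58 and about 1 on both axes. The 6 genes with levels at 48h at least 1 above those at 12h on the log2 scale lie between 2.11 and 5.23 on the horizontal axis. They lie below the dotted line of equal differences, as every gene with a higher mean at 48h than at 12h does by definition. That held for 99 of the 149 (66.4%, beside 39.6% of the 17155 genes).

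By the chromosome number in their IDs, the 149 genes fell on all 20 chromosomes. Chromosomes 5, 10 and 19 held 12 each, 1.45%, 1.25% and 1.51% of their genes with a mean of 5 to 1000 FPKM, and chromosome 16 held 10, or 1.65%. Chromosome 1 held 1, or 0.136%, beside 0.869% over all chromosomes. No test was run on this distribution. Counting along the IDs, 14 of the 149 lay within 5 steps of another, 6 within 1 and 21 within 10. Among the 150 genes chosen by the mirrored rule, lowest at 24h, 12 lay within 5 steps of another.

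The neighbouring pairs with the largest differences were not alike in level. Glyma.13G332700, 4 steps from Glyma.13G333100, had 59.5, 75.95 and 41.6 scaled FPKM in the 12h libraries, 76.5, 106 and 132 in the 24h libraries and 52.7, 61.8 and 65.4 in the 48h libraries. Its 12h libraries varied too, but replicate 1 lay between the other 2, whereas in its neighbour replicate 1 alone was low. Glyma.11G237200, 5 steps from Glyma.11G236700, had 9.17, 13.9 and 15.7 scaled FPKM in the 12h libraries, 16.7, 17.3 and 32.6 in the 24h libraries and 9.34, 12.01 and 13.1 in the 48h libraries. It was not low at 12h as its neighbour was. Glyma.06G150100, 2 steps from Glyma.06G150300, had 74.1, 70.5 and 58.4 scaled FPKM in the 12h libraries, 101, 114 and 114 in the 24h libraries and 51.7, 57.4 and 65.1 in the 48h libraries. The directly adjacent Glyma.11G243200 and Glyma.11G243300 had 24h differences of 0.99 and 0.58.

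With all 9 libraries in use, genes with the opposite pattern were more numerous. All 24h libraries were below all others in 955 of the 17155 genes (5.57%), against the 505 (2.94%) in which they were above. Among the 150 of these with the largest difference, it ran from 1.08 to 4.56 with a median of 1.22, against the median of 0.67 of the 149 genes highest at 24h. Both lists were chosen by these values. The 150 are a smaller part of the 955 genes than the 149 are of the 505, which can by itself raise their median. The difference between the lists was not tested. Without 12h replicate 2, the genes with the 24h libraries on top numbered 3414. The count of genes lowest at 24h was not redone with a library left out, so whether it stays the larger is unknown.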

How the data were processed

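RNA was measured by sequencing in 9 libraries, 3 per group, made with a TruSeq RNA-seq kit per the labels' protocols. The deposited values are FPKM from the authors, in 1 table with a column for each of the 9 samples. The submitters' processing notes name TopHat2 2.1.0 and Cufflinks 2.2.1. Build, annotation and strandedness: not given in the sources used here. How reads of near-identical copies were assigned is not stated either.

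The columns were scaled by the median of ratios over the 34672 genes above 0 in all 9 libraries. Genes with at least 1 scaled FPKM in at least 3 libraries were tested for 48h against 12h with limma 3.58.1 (R 4.3.3), with an intensity trend, on log2(scaled FPKM + 1), over all 9 libraries with a term per group (prior degrees of freedom 3.49), and adjusted by Benjamini-Hochberg. Fold changes on that scale understate those of low genes. An exact permutation test of 3 against 3 libraries cannot go below p = 0.1 and was not used. The scripts were tested on simulated data. Counts and medians used Python 3.11.15.

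Named were the 10 genes with the largest 24h difference, the 5 others with the highest mean, the 3 smallest p-values in each direction for 48h against 12h, 3 genes on each side of the limit, and up to 3 neighbouring pairs. The members, lists and tests were chosen with earlier results of these data known. Word lists on gene descriptions and promoter motifs, also planned, could not be used because no ID was paired with a name. Alternatives were the deposited scale, quantile normalization, other pseudocounts and filters, fits of only the groups compared, a replicate block, robust moderation and leaving out each library. The main fit did not pair libraries by replicate number. Correlations of same-numbered deviations ran from -0.0662 to 0.373 over 9 pairs, and those of libraries with different numbers from -0.464 to 0.262. Such correlations cannot settle whether the libraries are paired.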

Additional observations from a re-analysis of the deposited data

How the results depend on the processing

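Of the 149 genes, 29 were chosen again from the deposited values, 72 after quantile normalization, and 98 with a minimum mean of 1 FPKM and no upper limit, where 791 genes had their 24h libraries on top. In the deposited values 84 of the 149 had them on top. Leaving out 1 library, 7 to 134 were chosen again (7 when it was 12h replicate 2, and 45, 90 and 65 when it was 24h replicate 1, 2 or 3), 549 to 3414 genes had the 24h libraries on top (3414 when this was 12h replicate 2, 1212 and 959 when it was 24h replicate 1 or 3), and 138 to 149 of the 149 did. The last count is close to 149 by construction, since leaving a library out loosens the condition apart from the new scaling and the filter on the mean. A pseudocount of 0.1 kept 145.

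For 48h against 12h (limma), 0 of the 149 passed, against 2 in the deposited values and 1 each after quantile normalization and with a pseudocount of 0.1. Leaving out 1 library gave 0 to 1. All genes called numbered 3 of 31021 tested, against 37 of 31518 in the deposited values and 9 of 31518 after quantile normalization. They were 10 of 31021 with a pseudocount of 0.1, 19 of 56044 with no filter and 1 of 18312 with a filter at 5 scaled FPKM. With only the 12h and 48h libraries they were 23 of 29909. Robust moderation and the replicate block each gave 1 of 31021. With 1 library left out they were 1 to 30, of 30528 to 31015 tested. The replicate block gave 0 of the 149 and changed no call among them. At an unadjusted p under 0.05 there were 10 of the 149, 28 in the deposited values (all higher at 48h, beside 9.26% of all genes tested), 24 after quantile normalization (likewise, beside 4.83%) and 5 to 14 with 1 library left out (beside 1.74% to 5.41% higher and 2.07% to 7.96% lower). No overlap between the groups, higher at 48h, held for 61 in the deposited values (beside 19.8%), 31 after quantile normalization (beside 10%) and 8 to 35 with 1 library left out (beside 7.8% to 16.4%). Lower at 48h it held for 0 and 1 on these scales (beside 2.23% and 5.60%), and for 2 to 21 with 1 library left out (beside 7.85% to 16.2%). The median log2 fold change was 0.51 in the deposited values and -0.043 to 0.232 with 1 library left out. The deposited scale and the left-out libraries change the counts by construction, and other causes were not tested. Within 1 ID step 6 genes had a neighbour. Depth is unknown, so its limits cannot be given.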
